A study of Mus musculus with 20 samples.

Results

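The Pbx, Meis and Pknox genes encode the homeodomain proteins that bind DNA together with Hox proteins. They were followed here in RNA sequencing of whole dorsal root ganglia (DRG), the paired clusters of sensory neurons and glia beside the spinal cord, of C57Bl6 mouse embryos at E18.5, shortly before birth. The list held Pbx2, Pbx3, Pbx4, Meis1, Meis2, Meis3, Pknox1 and Pknox2, which were chosen by name and not by their values, and each symbol matched 1 Ensembl identifier. These were 8 of 37620 genes listed and of 29049 with a value in at least 1 library. The donors were 10 embryos, 5 of each sex, with a lumbar library (ganglia L4-L5) and a sacral library (ganglia L6-S1) from every one. Level and sex thus gave 4 groups with 5 libraries in each, and neither a treatment nor a transgene is named in the labels. The question put to these genes was whether their level differed between the spinal levels, between the sexes, or between libraries in other ways.

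Pbx, Meis and Pknox proteins belong to the TALE class of homeodomain proteins, named for an extended loop between the first helices of the homeodomain. Pbx proteins bind Hox proteins directly and sharpen their choice of DNA sites. Meis and Pknox proteins bind Pbx proteins outside the homeodomain, help to keep them in the nucleus and bind neighbouring DNA, and Hox proteins themselves give each stretch of the body axis its own combination of factors.

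Part of the homeobox is shown, 63 of its 189 bases around the loop, because the loop defines the class and the stretch shows how closely the families resemble each other. The recognition helix, which contacts the bases of DNA, lies outside it. The sequences were taken from the reference genome (NCBIM37, which is mm9) for 6 of the 8 genes, 5′ to 3′ on the strand of the gene, and the capitals mark the 9 bases that code for the extra loop. The Pbx stretches lay within exon 5 of the transcripts, at chr17:34731573-34731635 (plus strand) for Pbx2 and chr2:34060327-34060389 (minus strand) for Pbx3. The Meis and Pknox stretches were split by an intron, and their outer ends were chr11:18805730-18841685 (minus) for Meis1, chr2:115747446-115825890 (minus) for Meis2, chr17:31736565-31739769 (plus) for Pknox1 and chr9:36702934-36717237 (minus) for Pknox2.
Pbx2: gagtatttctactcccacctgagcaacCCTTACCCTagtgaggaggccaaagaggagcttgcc
Pbx3: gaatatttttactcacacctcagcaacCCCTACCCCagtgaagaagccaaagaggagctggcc
Meis1: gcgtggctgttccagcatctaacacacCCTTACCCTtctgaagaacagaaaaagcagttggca
Meis2: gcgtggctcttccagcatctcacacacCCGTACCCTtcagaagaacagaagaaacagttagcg
Pknox1: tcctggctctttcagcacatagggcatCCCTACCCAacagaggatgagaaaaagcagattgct
Pknox2: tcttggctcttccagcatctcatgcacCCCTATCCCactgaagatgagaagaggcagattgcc
Over the whole homeobox of 189 bases, the Pbx genes were identical to each other at 79.4% to 82.5% of bases and the Meis genes at 82.0% to 84.7%. Pknox1 and Pknox2 were identical at 78.3%. Meis and Pknox genes matched each other at 65.1% to 71.4%, and Pbx genes matched the other families at 44.4% to 53.4%. Over whole protein-coding transcripts, and not only the homeobox, the longest run shared by any pair was 32 bases, between Meis1 and Meis2. The authors kept only reads that mapped to 1 place in the genome, and the run was not compared with the read length.

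The recovered read totals were 19606265 to 39678967 per library, and the 2 mitochondrial ribosomal RNA (rRNA) genes took 17.8% to 61.1% of them. Male donor M5 and female donors F7 and F8 each had a library above 40%, and the level differences without these 3 donors are given after those of the single genes. The 8 sensory neuron markers, among them Prph, Avil and Isl1, were present in every library, with a summed level of 382 to 916 RPKM in lumbar and 204 to 782 RPKM in sacral libraries. RPKM are reads divided by the length of the gene and by a library size scaled by the authors, not by the read totals above. The deposited values are log2 RPKM, with the same median in every library. The sum of 5 spinal cord markers did not exceed 1.96 RPKM in any library, while 7 fibroblast and meninges markers summed to 194 to 443 RPKM in lumbar and 268 to 599 RPKM in sacral libraries. The sum of 5 skeletal muscle markers ran from 19.9 to 344 RPKM in lumbar and from 19.3 to 269 RPKM in sacral libraries. In bulk tissue, fewer cells of a type and less RNA per cell cannot be told apart.

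All 8 genes were detected in every library, but their levels covered a wide range. Pknox2 was the most abundant per length and Pbx4 the least. As mean log2 RPKM ± SD over the 20 libraries, Pknox2 reached 3.15 ± 0.38, Meis3 2.13 ± 0.31, Meis2 1.92 ± 0.28 and Pbx2 1.81 ± 0.24. Below them came Pbx3 at 1.21 ± 0.16, Pknox1 at 1.11 ± 0.20, Meis1 at 0.32 ± 0.31 and Pbx4 at -1.92 ± 0.65. On the linear scale the mean of Pknox2 corresponds to 8.89 RPKM and that of Pbx4 to 0.265 RPKM. Among the 14529 genes that reached a mean of 1 RPKM in at least 1 group, Pknox2 stood at percentile 74.3 and Meis3 at percentile 53.2. The lowest of the list within that set was Meis1, at percentile 12.9, and Pbx4 did not reach it.

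The order was tested between neighbours over the means of the 10 donors, with an exact sign-flip permutation test (two-sided, adjusted over 7 pairs). Pknox2 exceeded Meis3 by 1.02 ± 0.41 log2 units (SD, n = 10 donors), in 10 of 10 donors (exact adjusted p = 0.0034). Pbx2 exceeded Pbx3 by 0.60 ± 0.26, Pknox1 exceeded Meis1 by 0.79 ± 0.23 and Meis1 exceeded Pbx4 by 2.23 ± 0.38, each in 10 of 10 donors and each with the same exact adjusted p. The unadjusted p of these 4 pairs, 0.00195, is the smallest that the test can give. The other neighbours did not differ beyond their spread. Meis3 lay above Meis2 by 0.21 ± 0.35 (exact adjusted p = 0.114), Meis2 above Pbx2 by 0.11 ± 0.26 (exact adjusted p = 0.219) and Pbx3 above Pknox1 by 0.11 ± 0.16 (exact adjusted p = 0.0984). Neighbours were set by the same values that were tested, so the sign of each mean gap was fixed beforehand. Genes that are not neighbours, such as Meis3 and Pbx2, were not tested against each other. As a description, the list fell into steps, Pknox2, then Meis3, Meis2 and Pbx2, then Pbx3 and Pknox1, then Meis1, then Pbx4. Genes within a step were not shown to be equal. The tests cover the spread of donors and not the gene lengths behind the deposited values. For Pknox1 that length was 6888 bases, beside 4213 in the GENCODE M1 annotation, and for Pknox2 7618 beside 3536. Other lengths would shift the levels, and the order under them was not tested.

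**Figure D1:**
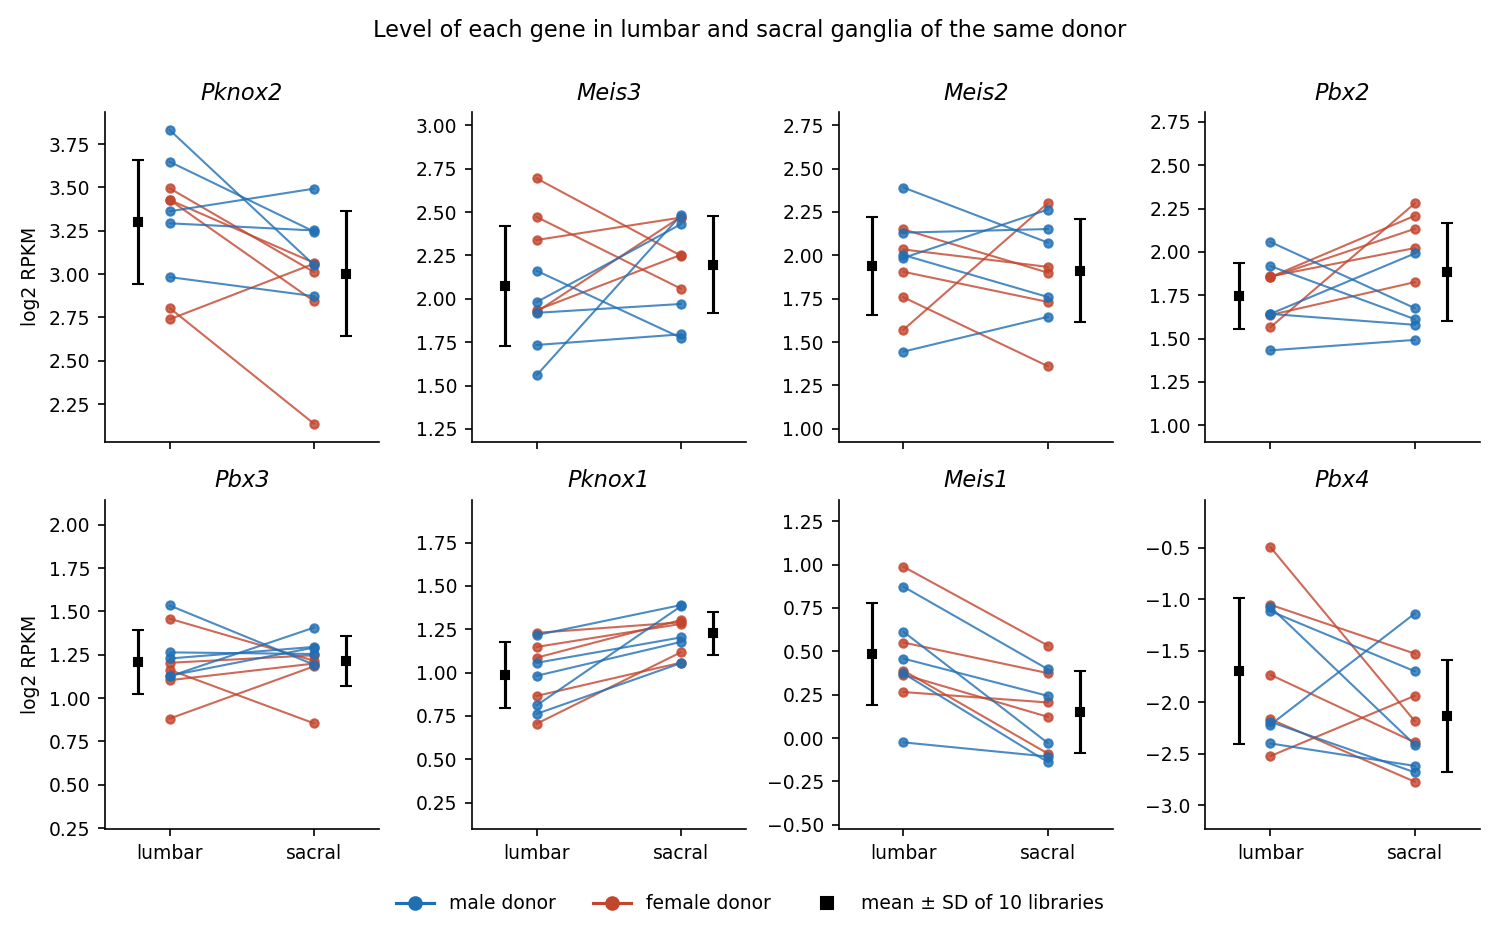
Level of each gene as log2 RPKM (vertical axes, which differ in position and, for Pbx4, in span) in the lumbar and sacral library of each donor. Lines join the 2 libraries of a donor, blue for males and red for females, and black squares with bars are the mean ± SD of 10 libraries; all lines of Pknox1 rise and all lines of Meis1 fall.

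To ask whether the cofactors differ between spinal levels, the sacral library of each donor was set against its lumbar library. None of the 7 genes tested passed an adjusted p of 0.05 in limma, the linear model fitted across all genes, where 6.73% of all genes tested did. At an unadjusted p under 0.05 there were 3 of the 7, Pknox1, Meis1 and Pknox2, where 24.1% of all genes tested lay under it. The median sacral minus lumbar difference over the 7 genes was 0.0050 log2 units, beside -0.05 over all genes tested, and their median absolute difference was 0.14, beside 0.17. A pair of genes kept 1 direction in all donors. Pknox1 was higher in the sacral library in 10 of 10 donors and Meis1 was lower in 10 of 10, a unanimity that 2.85% of all genes tested showed in either direction. The lumbar and sacral values of every gene of the list overlapped, and the share of all genes tested with such an overlap was not computed.

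The Pbx genes showed no difference between levels beyond their spread. Pbx2 (ENSMUSG00000034673, chromosome 17, 34728211 to 34734345, plus strand, mm9) ranged from 1.43 to 2.06 log2 RPKM in lumbar libraries (median 1.75) and from 1.49 to 2.28 in sacral libraries (median 1.91). It was higher in the sacral library of 7 of 10 donors, by 0.14 ± 0.08 (SE; 95% interval -0.04 to 0.31; limma adjusted p = 0.324). Its 5′ end shares 227 exon bases with Gpsm3 on the same strand, and reads there cannot be assigned to either with certainty. Pbx3 (ENSMUSG00000038718, chromosome 2, 34026977 to 34228660, minus strand) had the smallest SD over the 20 libraries. Its level was 0.88 to 1.53 in lumbar libraries (median 1.18) and 0.85 to 1.41 in sacral libraries (median 1.23), with a difference of 0.00 ± 0.08 (interval -0.17 to 0.18; adjusted p = 0.979).

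Pbx4 (ENSMUSG00000031860, chromosome 8, 72356523 to 72397062, plus strand) was present at a trace. It had 11 to 59 reads per library and 499 over all 20. Its level ran from -2.52 to -0.49 log2 RPKM in lumbar libraries (median -1.95) and from -2.77 to -1.14 in sacral libraries (median -2.29). In 8 of 10 donors the sacral value was lower, and the mean difference was -0.44 ± 0.81 (SD, n = 10), and higher in F3 and M3. The exact sign-flip permutation test gave p = 0.115 (two-sided, 1 gene tested in this way), and the interval from -0.99 to 0.14 is the widest of the list. Male donor M3, at 1.08, and female donor F7, at -1.69, were the extremes.

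Among the Meis genes, which join Pbx proteins on DNA, only Meis1 had 1 direction in all donors. Meis1 (ENSMUSG00000020160, chromosome 11, 18780433 to 18918961, minus strand) ranged from -0.02 to 0.99 in lumbar libraries (median 0.42) and from -0.14 to 0.53 in sacral libraries (median 0.16). The donor differences ran from -0.64 in M7 to -0.06 in F10, all below 0. Their mean was -0.33 ± 0.12 (SE; interval -0.58 to -0.09; unadjusted p = 0.011, limma adjusted p = 0.0939), and on the linear scale the level decreased by 20.7%. With no variance trend in the model it passed the threshold (adjusted p = 0.0466), the 1 of 20 alternative settings in which it did. In that setting 927 of 14529 genes tested passed. Meis1 is overlapped over 896 exon bases by Gm16140 on the opposite strand, and without stated use of strand their reads cannot be told apart. Gm16140 had 52 reads over all libraries, beside 247 to 778 reads of Meis1 in each.

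Meis2 (ENSMUSG00000027210, chromosome 2, 115688800 to 115891575, minus strand) had 534 to 2134 reads per library and no common direction. Its level was 1.44 to 2.39 in lumbar libraries (median 1.99) and 1.36 to 2.30 in sacral libraries (median 1.92). In 6 of 10 donors the sacral value was the lower one, and the mean difference was -0.03 ± 0.11 (SE; interval -0.26 to 0.21; limma adjusted p = 0.908). The widest departure was female donor F8, in which the sacral library was higher by 0.73. Meis3 (ENSMUSG00000041420, chromosome 7, 16760729 to 16771853, plus strand) had the widest spread of donor differences among the genes tested. It lay at 1.56 to 2.69 in lumbar libraries (median 1.96) and 1.78 to 2.48 in sacral libraries (median 2.25). Donor differences ran from -0.45 in F8 to 0.92 in M5, and their mean was 0.12 ± 0.11 (SE; interval -0.11 to 0.36; adjusted p = 0.524).

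The Pknox genes, also called Prep genes, had mean differences of opposite sign. Pknox1 (ENSMUSG00000006705, chromosome 17, 31701718 to 31744638, plus strand) ranged from 0.70 to 1.23 in lumbar libraries (median 1.02) and from 1.05 to 1.39 in sacral libraries (median 1.24). The sacral library was higher in every donor, from 0.06 in F3 to 0.57 in M5. The mean difference was 0.24 ± 0.08 (SE; interval 0.07 to 0.41; unadjusted p = 0.0074, limma adjusted p = 0.0765), or 18.1% on the linear scale. With each library centred on the median of the tested genes, Pknox1 passed the threshold, at 0.26 and an adjusted p of 0.0490. It also passed with sample weights, at 0.23 (adjusted p = 0.0452), a setting in which 2998 of 14529 genes tested passed. In the other 18 of 20 alternative settings Pknox1 did not pass, with a limma adjusted p of up to 0.315.

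Pknox2 (ENSMUSG00000035934, chromosome 9, 36698570 to 36954899, minus strand), with 773 to 3686 reads per library, lay at 2.74 to 3.83 in lumbar libraries (median 3.40) and 2.14 to 3.49 in sacral libraries (median 3.06). In 8 of 10 donors it was lower at the sacral level, most in M8 at -0.78, and higher in F8 by 0.32 and in M7 by 0.13. The mean difference was -0.30 ± 0.12 (SE; interval -0.54 to -0.05; unadjusted p = 0.020, limma adjusted p = 0.131). It passed the threshold with sample weights over all 10 donors, at -0.35 (adjusted p = 0.0126), and without donor F8, at -0.38 (adjusted p = 0.0350). Of all genes tested, 2998 of 14529 passed with sample weights and 1608 of 14549 without F8.

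Without M5, F7 and F8, the donors with a library above 40% mitochondrial rRNA, Pknox2 was at -0.37 and passed (limma adjusted p = 0.0351). It was then the 1 gene of the 7 at an unadjusted p under 0.05, where there were 3 with all donors. Of all 14395 genes tested without these 3 donors, 3557 lay under an unadjusted p of 0.05 and 1114 passed the threshold. Meis1 was at -0.31 (adjusted p = 0.264) and Pknox1 at 0.21 (adjusted p = 0.315). The other genes stayed short of the threshold, with Pbx2 at 0.14, Meis3 at 0.07, Pbx3 at 0.03 and Meis2 at -0.12. With all 10 donors, no interval of the 7 genes extended beyond 0.58 log2 units in either direction.

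**Figure D2:**
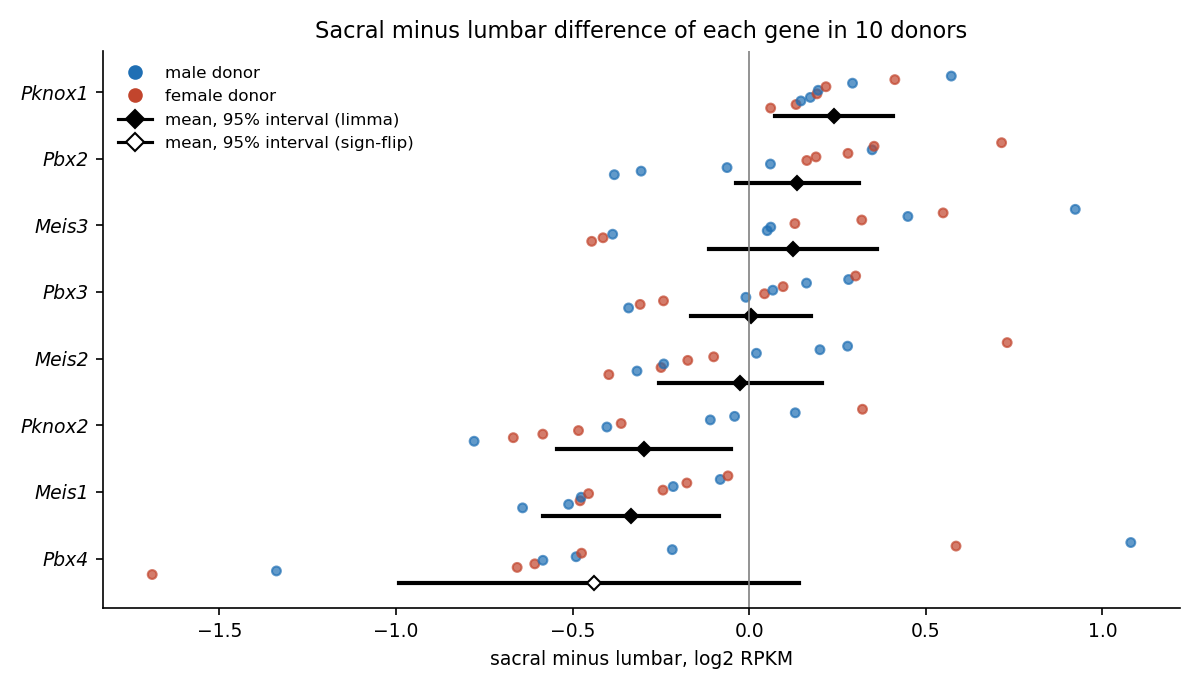
Sacral minus lumbar difference in log2 RPKM (horizontal axis) of each gene, with 1 point per donor, blue for males and red for females. Diamonds and black lines are the mean and 95% interval, from limma for 7 genes and from the sign-flip test for Pbx4 (open diamond); the intervals of Pknox1, Pknox2 and Meis1 exclude 0 before adjustment over all genes.

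Pknox2, and less closely Meis2, followed the sensory neuron markers of the same libraries. Over the 20 libraries, Pearson's r of Pknox2 with the mean log2 RPKM of the 8 sensory neuron markers was 0.91, and 0.83 without the 2 libraries farthest from the median, those of sacral F7 and sacral M5. Over the 10 donor differences, r of Pknox2 with the median difference of the markers was 0.91, and 0.93 without F7 and F8. For Meis2 the corresponding values were 0.74 and 0.61 over libraries and 0.77 and 0.60 over donors. Neurons were not the only list that Pknox2 and Meis2 varied with. Over the 20 libraries r of Pknox2 was 0.79 with Schwann cell and satellite glia markers, -0.82 with cartilage markers and -0.66 with fibroblast and meninges markers. Over the donor differences these were 0.47, -0.42 and -0.62, and 0.11, -0.57 and -0.34 without the 2 donors farthest from the median. With 3 erythroid markers r of Pknox2 was -0.64 over the 20 libraries (-0.77 without both libraries of F8). It was -0.25 with these markers over the donor differences (-0.27 without F9 and F3). Over the donor differences r of Meis2 was -0.73 with fibroblast and meninges markers and -0.68 with macrophage markers. Without the 2 farthest donors these were -0.47 and -0.19, and over the 20 libraries -0.33 and -0.59. These links were thus less steady than that of Pknox2 with the neuron markers. Both donors in which Pknox2 was higher in the sacral library, F8 and M7, were also among the 3 in which the median of the markers was higher there. With 4 skeletal muscle markers, r over the donor differences was 0.68 for Pbx3 and 0.62 for Meis3 (0.53 and 0.60 without M7 and F8). Over the 20 libraries these were 0.24 and 0.49 (-0.12 and 0.25 without lumbar F8 and sacral M7). The points share libraries, depth and scaling, so all of these values are descriptions. The r of all genes tested with these marker lists was not computed, so how usual such values are is not known.

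The marker levels themselves differed between the spinal levels. The sensory neuron median was lower at the sacral level in 7 of 10 donors (mean of donor medians -0.35 ± 0.43, SD), with 1 of 8 markers past the limma threshold. The Schwann cell and satellite glia median was lower in 10 of 10 (-0.41 ± 0.19; 4 of 8 markers lower) and the fibroblast and meninges median higher in 9 of 10 (0.45 ± 0.34; 4 of 7 markers higher). The cartilage median was also higher in 9 of 10 (0.84 ± 0.43; 2 of 3 tested markers higher), and that of endothelium in 6 of 10 (0.14 ± 0.27; 2 of 5 higher). Meis1 went the other way from Pknox2 within donors, with r = -0.61 to the sensory neuron median (-0.59 without F7 and F8) and 0.52 to the fibroblast and meninges median (0.35 without F8 and F10). Over the 20 libraries its r was -0.31 with the sensory neuron markers and -0.15 with the fibroblast and meninges markers, the latter of opposite sign. Meis1 was lowest in the sacral library relative to the lumbar one in M7, a donor in which the neuron median was higher there by 0.08. For Pknox1, r over the 20 libraries was 0.58 with fibroblast and meninges, 0.57 with cartilage and -0.49 with Schwann cell and satellite glia markers. Over the donor differences these were 0.20, 0.31 and 0.06. The part of tissue composition in the level differences of Pknox2, Meis1 and Pknox1 was not tested.

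**Figure D3:**
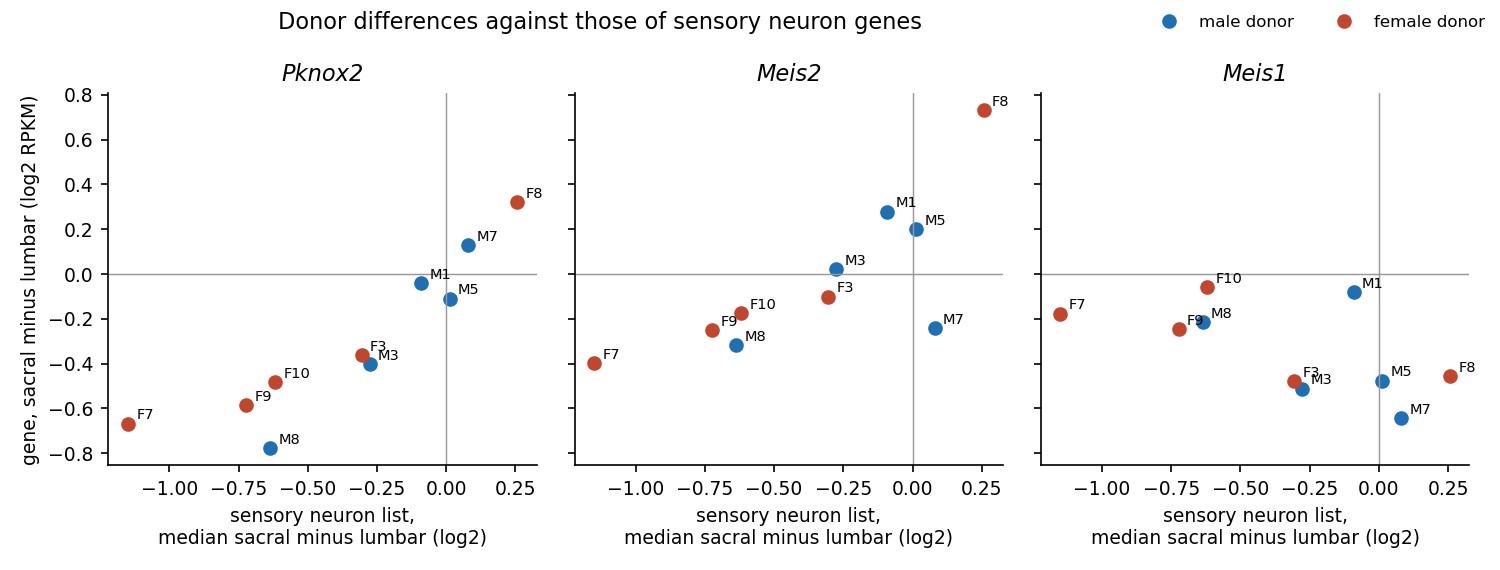
Sacral minus lumbar difference of Pknox2, Meis2 and Meis1 (vertical axis, log2 RPKM) against the median difference of 8 sensory neuron markers (horizontal axis, log2), with 1 labelled point per donor, blue for males and red for females. Pknox2 rises along the axis (r = 0.91 over 10 donors), Meis2 does so less closely (r = 0.77), and all Meis1 values lie below 0.

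The genes also differed in how they varied with the share of mitochondrial rRNA. Over the 20 libraries r with that share was -0.75 for Meis2, -0.69 for Pknox2 and 0.59 for Meis1, and it lay between -0.28 and 0.33 for the other 5. Over all genes tested the median r was -0.24, and the 10th and 90th percentiles were -0.78 and 0.61, so the values of these 3 genes were within the usual span. Within a level, r in lumbar and in sacral libraries was -0.92 and -0.56 for Meis2, -0.83 and -0.64 for Pknox2 and 0.66 and 0.84 for Meis1. For Pbx4 it was 0.81 and -0.41 and for Pbx2 -0.64 and -0.02, while Pbx3, Meis3 and Pknox1 lay between -0.23 and 0.29 in both. With the share as a covariate the level difference was -0.34 for Meis1 (limma adjusted p = 0.0742), 0.24 for Pknox1 (adjusted p = 0.106) and -0.29 for Pknox2 (adjusted p = 0.0636). Among the members, Meis2 and Pknox2 varied together most closely, with r = 0.71 over 20 libraries and 0.78 over the 10 donor differences.

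To describe which genes were most alike in pattern, each of the 7 was set against all other genes tested. Pknox2 had the closest matches, Nrg1, a growth factor of the neuregulin family, and Epb4.1l3, a membrane skeleton protein, with r = 0.965 and 0.964 over 20 libraries. Meis2 came nearest to Rnf41 (r = 0.913) and Ntng2 (r = 0.893). The nearest genes to Pknox1 were Fip1l1 (0.834) and Ino80d (0.822) and the nearest to Meis1 was Mycbp (0.814). Pbx2, Pbx3 and Meis3 had no match above 0.77. Each is the highest value among all genes tested, and the height that unrelated genes would reach was not computed. Several matches also varied with the mitochondrial rRNA share, with r = -0.84 for Rnf41, -0.82 for Ntng2, -0.80 for Epb4.1l3, -0.68 for Nrg1 and 0.60 for Mycbp. For Fip1l1 and Ino80d it was -0.24 and -0.02.

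To ask whether the cofactors differ between male and female DRG, the sexes were compared within each level. None of the 7 genes passed in lumbar libraries, where 0.33% of all genes tested did, or in sacral libraries, where 1.01% did (limma, adjusted p of at most 0.05). In neither level were the male and female ranges of any of the 8 genes apart. The share of all genes tested with such an overlap was not computed. At an unadjusted p under 0.05 there were 0 of 7 in lumbar libraries, beside 8.28% of all genes tested. In sacral libraries there was 1 of 7, beside 15.5% of all genes tested. The 1 gene was Pbx2. In sacral libraries it averaged 2.09 ± 0.18 in females and 1.67 ± 0.19 in males (SD, n = 5 each), a difference of 0.42 ± 0.15 (SE; interval 0.12 to 0.73; unadjusted p = 0.0086, limma adjusted p = 0.168). In lumbar libraries the means were 1.75 ± 0.14 and 1.74 ± 0.25, and the difference was 0.02 ± 0.15 (adjusted p = 0.990). With the mitochondrial rRNA share as a covariate, the sacral difference of Pbx2 was 0.45, with an adjusted p of 0.0451. In that fit 705 of 14529 genes tested passed, beside 147 without the covariate.

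Pbx2 was higher in the sacral than in the lumbar library of 5 of 5 females, by 0.34 ± 0.22 (SD, n = 5), and of 2 of 5 males, in which the mean difference was -0.07 ± 0.29. The test of that difference between the sexes gave 0.41 ± 0.17 (SE; unadjusted p = 0.024, limma adjusted p = 0.995). No gene tested passed this interaction test (0% of all genes tested, 470 of 14529 at an unadjusted p under 0.05), so the sexes were not shown to differ in the level difference of Pbx2. The widest sex difference of the other genes was that of Meis3 in lumbar libraries, 0.40 ± 0.20 higher in females (interval -0.01 to 0.82; adjusted p = 0.609). For Meis1 and Pknox1 the direction between levels was the same in 5 of 5 males and 5 of 5 females. The level difference of Meis1 was -0.39 in males and -0.28 in females, and that of Pknox1 was 0.28 and 0.20.

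TALE genes of other families were compared in the same fit. Of Irx1 to Irx6, Mkx, Tgif1 and Tgif2, only the Tgif genes reached the level needed for a test. Neither passed, with a difference of 0.09 ± 0.23 (SE) for Tgif1 (limma adjusted p = 0.841) and -0.21 ± 0.21 for Tgif2 (adjusted p = 0.556). Of the Hox genes themselves, 27 identifiers of 26 genes were tested, Hoxa3 being listed under 2 overlapping ones, and 12 passed, 6 higher and 6 lower in sacral DRG, with a median absolute difference of 0.48 and a largest of 5.59 (Hoxc12, blank in 2 libraries). Hox paralog groups 10 to 13 held all 6 that were higher. Set beside them, the 7 cofactor genes spanned -0.33 to 0.24.

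**Figure D4:**
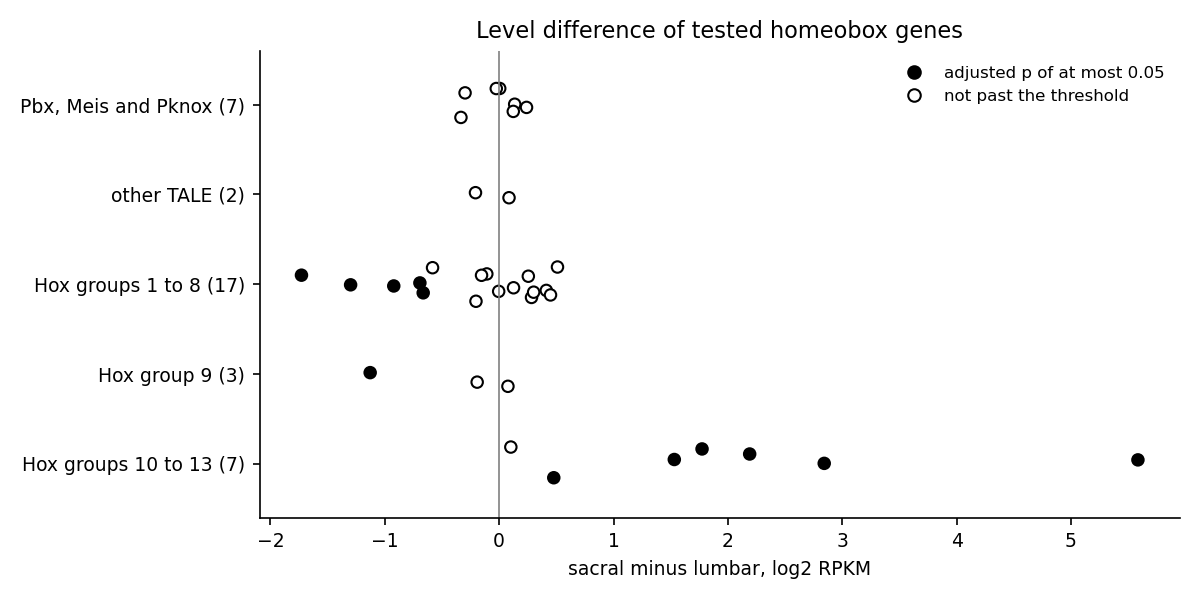
Sacral minus lumbar difference in log2 RPKM (horizontal axis) of the tested Pbx, Meis and Pknox genes, other TALE genes and Hox genes by paralog group, with 1 point per identifier, the number of identifiers in brackets and points spread vertically for clarity. Filled points passed an adjusted p of 0.05 in limma: 0 of 7 cofactor genes, 0 of 2 other TALE genes and 12 of 27 Hox identifiers.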

How the data were processed

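Total RNA of each library was amplified to cDNA by the authors, tagged with transposase and sequenced. The authors aligned reads to mm9 with Subread, kept unique alignments, counted them per Ensembl 67 gene with featureCounts and deposited log2 RPKM after TMM and voom scaling (edgeR 3.12.1, limma 3.26.9); use of strand is not given in the sources used here. The deposited log2 values share 1 median per library. Groups came from the labels, columns were matched by their label, and the members and lists were chosen with earlier results of these data known. All 8 members are named; the 2 genes nearest to a member in Pearson r over 20 libraries may be named, as may Hox and other TALE genes past the threshold. Those not past it, and the markers Prph, Avil and Isl1, were named after their values were seen.

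Reads were recovered by multiplying the linear value by gene length (GENCODE M1 exons, mm9). These lengths gave whole reads, to within 0.05, for 98.27% of values. For the members, the counting length that made all 20 values whole was solved, and it was unique for all 8, equal to the GENCODE M1 length for Pbx2 and longer for 7. A blank counts as 0 reads and was set to the value of 0.5 reads; no member had one. Read totals cover counting error only, since no molecular identifiers were used.

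Differences were tested with limma 3.58.1 (R 4.3.3, statmod 1.5.0) on the log2 values of 20 libraries, with 4 group means, donor as a block and a variance trend, for 14529 genes with a mean of at least 1 RPKM in a group, two-sided, Benjamini-Hochberg adjusted over all of them. Both libraries of a donor come from 1 embryo per the labels. Their deviations from the group means correlated from -0.17 in M8 to 0.68 in M5. Pbx4, below that minimum, and the order of levels were tested by exact sign-flip permutation over 10 donors. The scripts were tested on simulated data. Other genes of these families were not analysed here.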

Additional observations from a re-analysis of the deposited data

Results flagged for a closer look

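The values of the 8 genes in the 4 groups of 5 libraries made 32 sets, in each of which the lowest and highest library were compared with the others by Dixon's test, which flags about 1 set in 20 by chance. Pbx3 of female donor F3 stood apart at the sacral level, at 0.85 log2 RPKM with 470 reads, where the nearest sacral female library was at 1.18. That library had the lowest mitochondrial rRNA share, 17.8%. Pknox2 of female donor F7 stood apart at the sacral level, at 2.14 with 773 reads, where the nearest was at 2.84. Its mitochondrial rRNA share was 44.7%, and the sensory neuron median of this donor fell furthest from lumbar to sacral, at -1.15.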

How the results depend on the processing

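Between levels, 978 genes passed the threshold; in separate fits the total was 154 with no replicate block, 2998 with sample weights, 507 with no filter, and 406 (without F10) to 1608 (without F8) with 1 donor left out; M1, M5, F3 and F7 also moved it by over 1.5 times, to 600, 490, 557 and 520. With no block no cofactor gene passed. The 0 members past the threshold became 2 with sample weights (Pknox1 0.23, Pknox2 -0.35; adjusted p = 0.0452 and 0.0126), 1 with centring (Pknox1 0.26), 1 with no variance trend (Meis1 -0.33, adjusted p = 0.0466), 1 without the 3 donors above 40% mitochondrial rRNA, a setting chosen after seeing the data (Pknox2 -0.37), and 0 to 1 with 1 donor left out, the 1 being Pknox2 without F8. The ranges with 1 donor left out were -0.38 to -0.23 for Pknox2, 0.084 (without M1) to 0.17 (without M8) for Pbx2, 0.036 (without M5) to 0.20 (without M8) for Meis3, -0.035 to 0.052 for Pbx3 and -0.12 to 0.020 for Meis2, the last 2 changing sign. With sample weights Meis3 was at 0.0035. Pbx4 ran from -0.61 (without M3, past the threshold) to -0.30. Between sexes, 48 genes in lumbar libraries became 197 with sample weights, 73 with centring, 228 with the mitochondrial share as covariate and 14 (without M3) to 81 (without M5) with 1 donor left out. The 147 in sacral libraries became 751, 275, 94 with no filter, 705 with the covariate, 339 without the 3 donors and 55 to 444; Pbx2 passed with the covariate (0.45), 1 member. Sex differences that changed sign were all small: in lumbar libraries Pbx2 (-0.087 with weights, -0.019 with centring, -0.056 without the 3 donors, -0.061 to 0.095 with 1 donor left out), Meis1 (-0.00044 with weights, -0.014 without the 3 donors, -0.067 to 0.16) and Pknox1 (-0.030 with weights, -0.071 without the 3 donors, -0.014 to 0.12); in sacral libraries Pknox1 (-0.078 to 0.0065). The interaction changed sign for Meis2 (0.014 with centring, 0.020 with the covariate, -0.22 to 0.064), Meis3 and Pknox1 (0.044 and 0.020 without the 3 donors, Pknox1 -0.13 to 0.0011) and Pbx3 (-0.15 to 0.018). No gene passed the interaction under any of 17 alternatives. The order of levels, at the gene lengths behind the deposited values, held under all 11. The causes were not tested. Differences in Pbx4 are limited by its 11 to 59 reads per library.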
